A study of Drosophila melanogaster with 8 samples.

Results

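The transcripts described here come from the mitochondrial genome of adult Drosophila melanogaster females. They were chosen as every gene whose symbol starts with mt:, which gave 35 of the 17411 genes in the count files. Of these, 13 encode proteins and 22 encode tRNAs; the mitochondrial rRNAs were not analysed here. Poly(A)-selected RNA was sequenced from the cuticle of females 1 week old with the fat body left on it; how many flies went into a library is not given in the sources used here. In the 9G8 RNAi group (yolk-Gal4>9G8RNAi, n = 4 libraries) a hairpin against 9G8, a splicing factor of the SR type whose gene the files list as x16, was expressed by yolk-Gal4, a driver that works in the adult female's fat body. The control group (yolk-Gal4/w1118, n = 4 libraries) carried the same driver over a w1118 chromosome and no hairpin, so the hairpin transgene and any difference of strain background go together with genotype. The driver is common to both groups, and cells of the cuticle and other attached tissue are in the RNA although the driver does not target them.

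Mitochondrial DNA is a small, gene-dense circle whose genes hold no introns. A mitochondrial RNA polymerase copies it into long precursors, which are cut mostly at the tRNAs that lie between the coding genes, and the freed mRNAs receive poly(A) tails inside the organelle. The encoded proteins are the membrane cores of respiratory complexes I, III, IV and V, each of which also needs subunits made from nuclear genes; complex II is built from nuclear genes alone. In the fat body, the fly's organ of fat storage and intermediary metabolism, this chain oxidises the NADH made from sugars and fatty acids. Mature tRNAs carry no poly(A) tail, so a poly(A)-selected library is not a measure of their amount.

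Library totals ran from 25396063 to 36181492 counts in 9G8 RNAi and from 27946556 to 34750635 counts in control. The x16 transcript was at 37.5 to 227.0 CPM (counts scaled to a common library total) in 9G8 RNAi and at 49.9 to 334.8 in control, with overlapping groups (log2 fold change -0.63, adjusted p = 0.862, quasi-likelihood test of edgeR), so a lower level of the targeted transcript was not detectable. The scaling factors that the trimmed mean of M values (TMM) assigned ran from 0.758 for 9G8 RNAi 4 to 1.54 for 9G8 RNAi 2, and from 0.825 to 1.20 in control. TMM scaling therefore spreads the 9G8 RNAi values of a gene that is a steady share of the library total. A gene steady relative to most other genes is instead spread in CPM of the library total. Over the 13 protein-coding mitochondrial genes, the median SD between 9G8 RNAi libraries was 0.68 on the log2 scale after TMM scaling and 0.25 as a share of the library total, against 0.22 and 0.14 between controls. Levels per library are given below as CPM of the library total, and fold changes come from the TMM-scaled fit.

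Mitochondrial transcripts were among the most abundant of the tissue: 6 of the 10 genes with the highest mean counts were mitochondrial, led by mt:CoI. Together the 35 genes took 16.5%, 12.9%, 17.8% and 18.05% of all counts in 9G8 RNAi libraries 1 to 4, and 12.3%, 12.7%, 11.6% and 14.04% in controls 1 to 4. The mean share was 16.3% ± 2.37 in 9G8 RNAi and 12.6% ± 1.04 in control (SD, n = 4 each). 9G8 RNAi 1, 3 and 4 lay above every control, and 9G8 RNAi 2 lay above controls 1 to 3 and below control 4, so the groups overlapped through that pair of libraries. The difference of means was 3.65 percentage points; it was 4.78 without 9G8 RNAi 2 and 4.11 without control 4, with the groups apart in either case, and 3.07 without 9G8 RNAi 4, where they overlapped. No p-value is given for sums over these genes. Nearly all of the share was in the protein-coding genes, 16.2% ± 2.34 in 9G8 RNAi and 12.54% ± 1.03 in control, while tRNA genes held 0.139% ± 0.0420 in 9G8 RNAi and 0.105% ± 0.0153 in control. The 95% Wilson interval of each library's total share reached at most 0.0150 percentage points to either side, which covers counting error only. In bulk RNA of this kind, more cells of a mitochondria-rich type and more mitochondrial RNA per cell cannot be told apart.

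**Figure D1:**
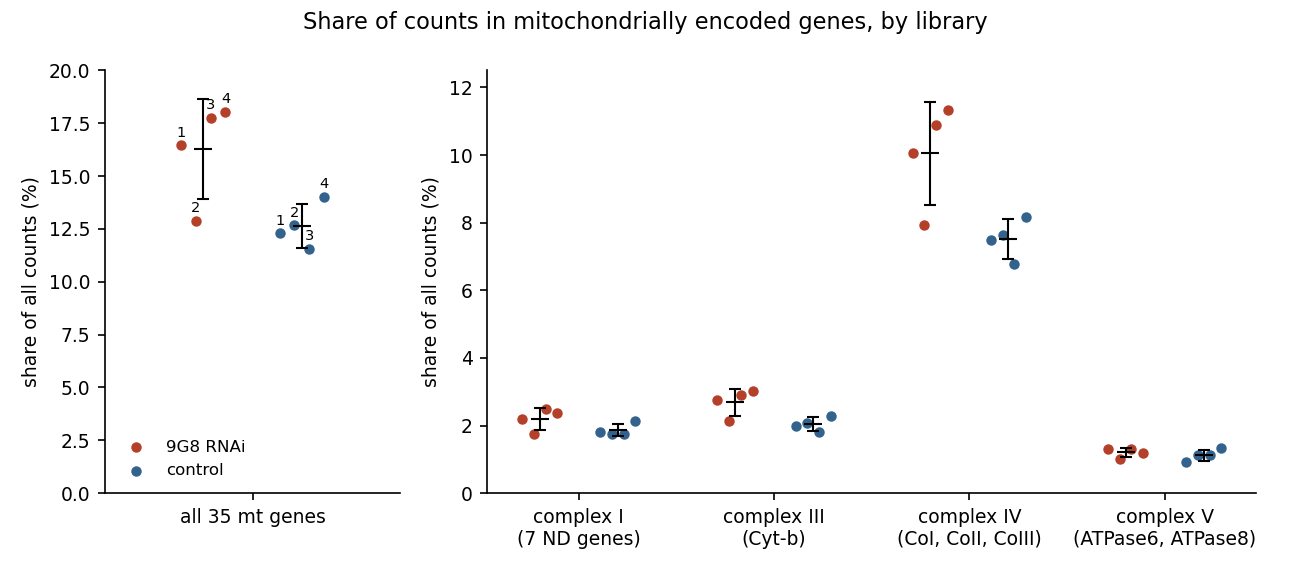
Share of all counts, in percent, taken by the 35 mitochondrial genes (left, libraries numbered) and by the protein-coding genes of each respiratory complex (right); points are libraries and bars are mean ± SD (n = 4 each). 9G8 RNAi 2, at 12.9%, sits apart from the other 9G8 RNAi libraries and within the control range of 11.6% to 14.04%.

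No mitochondrial gene passed the test between genotypes. Of the 35, 30 had enough counts to be tested, and 0 of them passed an adjusted p of 0.05 in edgeR's test, in either direction. Of all 9846 tested genes 3.21% passed, 0.995% higher and 2.21% lower in 9G8 RNAi. At an unadjusted p under 0.05 the count was also 0, as it was by DESeq2 and by limma-voom. In edgeR's test 1267 of all 9846 tested genes had an unadjusted p under 0.05. The log2 fold changes of the 13 protein-coding genes had a median of 0.24 and ran from -0.16 to 0.42, against a median of 0.01 over all tested genes. With 1 library left out, their median lay between 0.048 (without 9G8 RNAi 4) and 0.43 (without 9G8 RNAi 2). Leaving out 9G8 RNAi 3 gave 0.11, while leaving out control 1 gave 0.39 and leaving out 9G8 RNAi 1 gave 0.41. With library totals in place of TMM factors, 4 of the 13 had an unadjusted p under 0.05, and the smallest adjusted p of any mitochondrial gene was 0.146. Of the 30 tested mitochondrial genes, 7 had an unadjusted p under 0.05 in edgeR's test without 9G8 RNAi 2, and 1 without control 4. With libraries scaled to the mitochondrial coding counts it was 3. The share of all genes with an unadjusted p under 0.05 was not counted for library totals or for these fits. In simulated data of this design 2.09% of 2-fold and 46.6% of 4-fold changes were called, so most 2-fold changes were missed. The changes were placed in genes drawn at random from all tested genes, and none under 2-fold was simulated. What the test could call for the mitochondrial genes was not measured.

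The complex IV genes encode the 3 core subunits of cytochrome c oxidase, which passes electrons to oxygen, and all 3 had positive log2 fold changes. The largest of the mitochondrial mRNAs by count, mt:CoI (M, plus strand, 1474 to 3009 on BDGP6), encodes the subunit that holds the oxygen-reducing site. It stood at 49941, 42175, 56846 and 60050 CPM in 9G8 RNAi 1 to 4, and at 40271, 40299, 35992 and 43004 in controls 1 to 4. Only 9G8 RNAi 2 lay under the highest control, and the log2 fold change was 0.35 (SE 0.41, adjusted p = 0.894 by edgeR). For mt:CoII (3083 to 3767, plus strand), whose product takes electrons from cytochrome c, the values were 18558, 14405, 19545 and 19926 in 9G8 RNAi and 12433, 13431, 11984 and 14658 in control. The pattern was that of mt:CoI, and the log2 fold change was 0.42 (SE 0.40, adjusted p = 0.841). The mt:CoIII gene (4736 to 5524, plus strand) had 32022, 22634, 32512 and 33415 CPM in 9G8 RNAi against 22169, 22525, 19694 and 24130 in control. Again only 9G8 RNAi 2 overlapped the controls (log2 fold change 0.40, SE 0.41, adjusted p = 0.865).

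Complex III has a single mitochondrial gene, mt:Cyt-b (10498 to 11634, plus strand), for the cytochrome that carries electrons within the membrane. Its level was 27475, 21214, 28896 and 30130 CPM in 9G8 RNAi, against 19819, 20898, 18123 and 22864 in control. As for complex IV, 9G8 RNAi 2 was the one library of its group under the highest control (log2 fold change 0.36, SE 0.40, adjusted p = 0.886).

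The ATP synthase genes differed less between the genotypes in mean level. mt:ATPase6 (4062 to 4736, plus strand), which encodes a part of the proton channel, was at 12565, 9904, 12811 and 11615 CPM in 9G8 RNAi and at 8957, 10926, 11029 and 12869 in control. The 2 ranges covered nearly the same span, and the log2 fold change was 0.05 (SE 0.37, adjusted p = 0.985). mt:ATPase8 (3907 to 4068, plus strand) encodes a small membrane subunit and shares 7 bases with the start of mt:ATPase6. It was at 362.9, 221.4, 394.7 and 320.4 in 9G8 RNAi and at 322.0, 265.2, 293.9 and 344.8 in control (log2 fold change 0.05, SE 0.38, adjusted p = 0.986). How reads that touch overlapping genes were counted is not given in the sources used here, so the level of this short gene is uncertain.

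Complex I, the NADH dehydrogenase, has 7 mitochondrial genes, all for subunits of its membrane arm, and their log2 fold changes had both signs. The minus-strand gene mt:ND5 (6402 to 8124) was the most abundant, with 9171, 7588, 10573 and 9843 CPM in 9G8 RNAi and 7426, 7251, 7086 and 8800 in control. Its neighbour mt:ND4 (8206 to 9544, minus strand) had 5819, 4608, 6369 and 5892 in 9G8 RNAi, and 4581, 4245, 4414 and 5450 in control. mt:ND1 (11720 to 12658, minus strand) had 3606, 3015, 4428 and 4582 in 9G8 RNAi against 3090, 2884, 2920 and 3304 in control. In all 3, the 9G8 RNAi mean was the higher and the groups overlapped, with log2 fold changes of 0.24 for mt:ND5, 0.24 for mt:ND4 and 0.33 for mt:ND1 (adjusted p = 0.926, 0.926 and 0.895). For mt:ND4L (9544 to 9834, minus strand), which shares 1 base with mt:ND4, the values were 925.4, 627.7, 950.8 and 876.7 in 9G8 RNAi and 599.0, 672.4, 680.8 and 914.7 in control (log2 fold change 0.22, adjusted p = 0.937). The scarcest coding gene per length, mt:ND6 (9970 to 10494, plus strand), had 384.2, 247.1, 398.2 and 323.8 in 9G8 RNAi and 324.0, 325.4, 271.7 and 315.1 in control (0.06, adjusted p = 0.983). Both of these overlapped, with 9G8 RNAi 2 the lowest of its group.

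The remaining pair of complex I genes had negative log2 fold changes. mt:ND2 (240 to 1265, plus strand) was at 998.7, 806.4, 1157 and 1178 CPM in 9G8 RNAi and at 1019, 1085, 1099 and 1349 in control (log2 fold change -0.16, SE 0.38, adjusted p = 0.955). mt:ND3 (5608 to 5961, plus strand) was at 1172, 617.5, 1112 and 997.1 in 9G8 RNAi and at 1025, 1069, 982.5 and 1107 in control (-0.15, SE 0.40, adjusted p = 0.962). The groups overlapped in both: the highest mt:ND2 value was that of control 4, and all mt:ND3 controls lay within the range of the 9G8 RNAi libraries. The sign of either log2 fold change was not stable: without 9G8 RNAi 2 it was 0.04 for mt:ND2 and 0.09 for mt:ND3, and it was also positive for mt:ND2 without 9G8 RNAi 1 and for mt:ND3 without control 1.

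**Figure D2:**
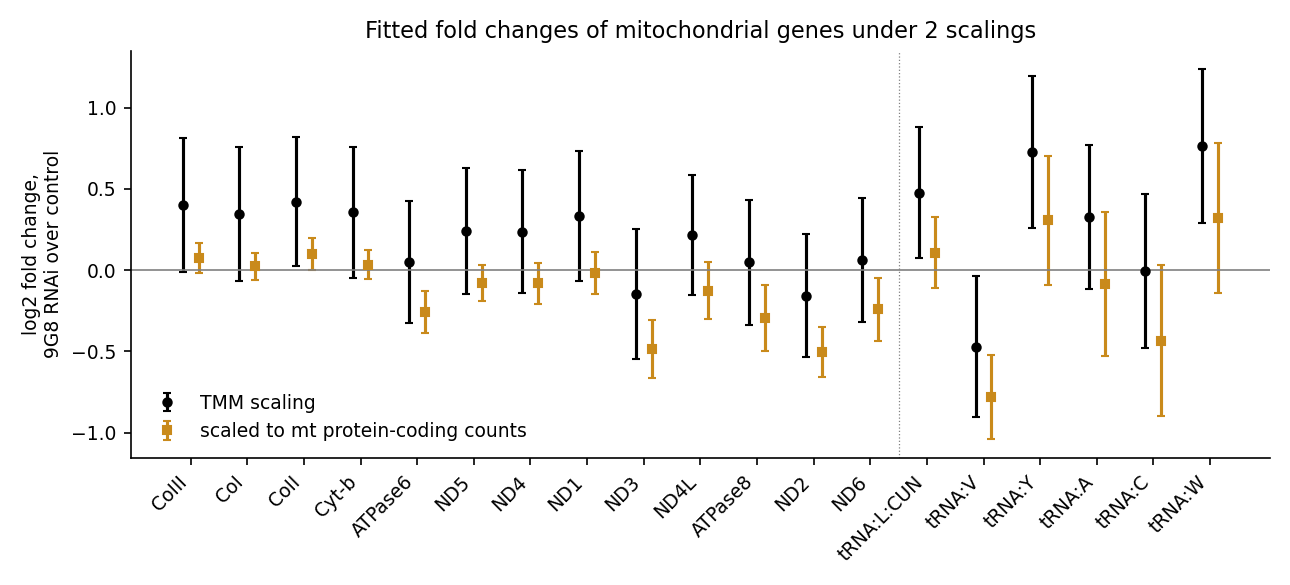
Log2 fold change of 9G8 RNAi over control with its SE for the 13 protein-coding genes (left of the dotted line, by falling level) and 6 tRNA genes, under TMM scaling (circles) and with libraries scaled to their mitochondrial protein-coding counts (squares). Under TMM scaling the coding genes run from -0.16 to 0.42; relative to the mitochondrial total, mt:ND2 and mt:ND3 stand lowest of the coding genes at -0.50 and -0.48.

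Corrected for gene length, as TPM (a length-corrected share of all transcripts) computed here from counts and lengths, the 13 mRNAs spanned 53.9-fold between mt:CoIII and mt:ND6. The order was mt:CoIII, mt:CoI, mt:CoII, mt:Cyt-b, mt:ATPase6, mt:ND5, mt:ND4, mt:ND1, mt:ND3, mt:ND4L, mt:ATPase8, mt:ND2 and mt:ND6. The complex III and IV genes and mt:ATPase6 formed the upper block, from 12479 TPM (mt:ATPase6 in control 1) upwards, and every other gene was at 5676 TPM or less in every library. The order held with few exceptions. mt:CoIII, mt:CoI and mt:CoII kept their ranks in 8 of 8 libraries, and mt:Cyt-b was above mt:ATPase6, and mt:ND4 above mt:ND1, in 7 of 8. mt:ND3 and mt:ND4L traded places: mt:ND4L was the higher in 9G8 RNAi 2, 3 and 4 and in control 4, and mt:ND3 in 9G8 RNAi 1 and in controls 1, 2 and 3. Near neighbours on one strand differed widely: mt:ND2, which lies upstream of mt:CoI on the same strand, was at 985.6 ± 101.2 TPM in 9G8 RNAi and 1037 ± 124.6 TPM in control, while mt:CoI was at 33288 ± 3180 TPM in 9G8 RNAi and 24294 ± 1518 TPM in control.

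**Figure D3:**
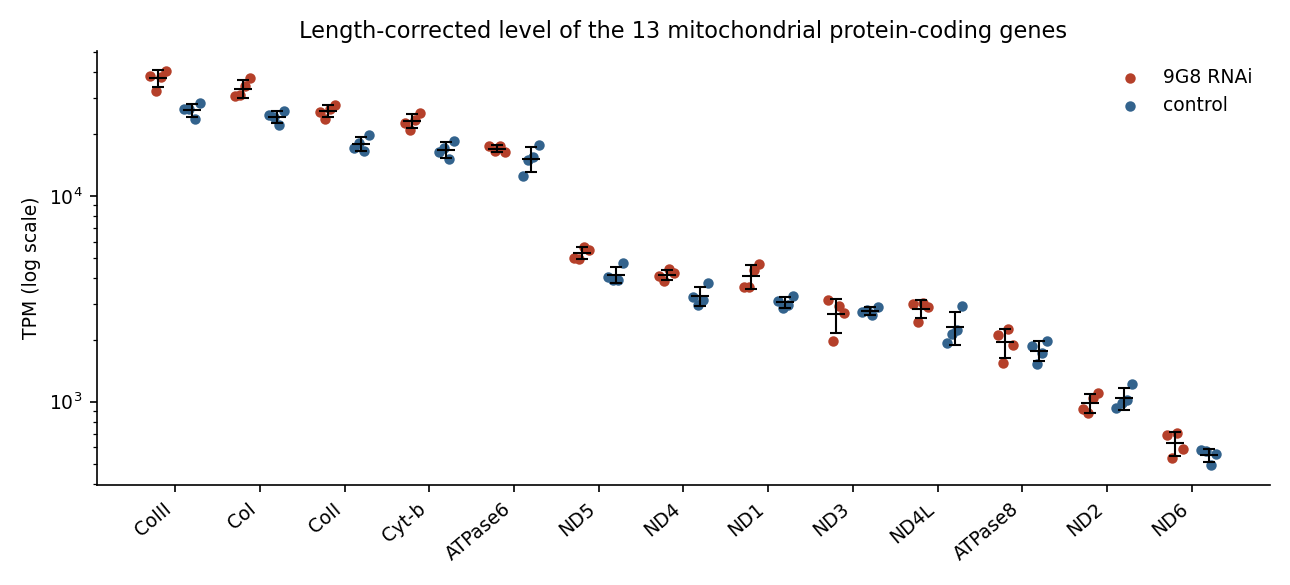
TPM of the 13 protein-coding mitochondrial genes on a log axis, ordered by mean level, with libraries as points and mean ± SD as bars (n = 4 each). The 5 genes on the left, of complexes III, IV and V, stand at 12479 TPM or more in every library and the others at 5676 TPM or less.

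The TPM scale separated the genotypes where CPM did not. In TPM, 7 of the 13 coding genes (mt:CoIII, mt:CoI, mt:CoII, mt:Cyt-b, mt:ND5, mt:ND4 and mt:ND1) were higher in every 9G8 RNAi library than in every control, and 0 were lower throughout. Over all tested genes the groups were apart in 10.2%, and apart with 9G8 RNAi above in 4.24%. In CPM of the library total the groups overlapped in 13 of 13, where 10.6% of all tested genes were apart, 3.8% with 9G8 RNAi above and 6.84% with 9G8 RNAi below. The difference between the scales lay in 9G8 RNAi 2, in which 1 CPM per kilobase equalled 1.13 TPM, against 0.925 to 0.956 TPM in the other 3 libraries of its genotype and 0.926 to 0.9497 TPM in controls. The 13 genes share their libraries and move together, so these counts are not independent of each other.

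Each of the 13 coding genes varied less within a genotype as a share of the mitochondrial mRNA pool than in CPM. The share of the mitochondrial protein-coding counts had a median SD of 0.06 on the log2 scale between 9G8 RNAi libraries and 0.07 between controls. Not all genes were that steady: the SD reached 0.25 for mt:ND3 in 9G8 RNAi and 0.18 for mt:ND4L in control. An abundant gene such as mt:CoI is a large part of its own total, which steadies its share. mt:CoI made up 32.3% ± 1.24 in 9G8 RNAi and 31.8% ± 0.897 in control, mt:CoIII 18.6% ± 0.810 in 9G8 RNAi and 17.6% ± 0.459 in control, and mt:Cyt-b 16.7% ± 0.208 in 9G8 RNAi and 16.3% ± 0.338 in control. The 9 genes on the plus strand gave 87.8% ± 0.386 of these counts in 9G8 RNAi and 87.2% ± 0.601 in control. The TPM ratio of mt:ND5 to mt:ND4, neighbours on the minus strand, was 1.27 in both genotypes, with an SD of 0.0332 in 9G8 RNAi and 0.0370 in control.

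Within this pool the shares of mt:ND2, mt:ND3 and mt:CoII did not overlap between genotypes. mt:ND2 held 0.613%, 0.630%, 0.658% and 0.657% of the mitochondrial coding counts in 9G8 RNAi 1 to 4, and 0.835%, 0.862%, 0.959% and 0.970% in controls 1 to 4. mt:ND3 held 0.719%, 0.482%, 0.632% and 0.557% in 9G8 RNAi, and 0.840%, 0.849%, 0.858% and 0.796% in control. Both were lower in every 9G8 RNAi library than in any control, with 9G8 RNAi 2 no exception. mt:CoII went the other way, at 11.4%, 11.2%, 11.1% and 11.1% in 9G8 RNAi and 10.2%, 10.7%, 10.5% and 10.5% in control. The other 10 genes overlapped, among them mt:ATPase6 at 7.30% ± 0.584 in 9G8 RNAi and 8.72% ± 1.00 in control. Shares of one pool are not independent, since a larger share for one gene lowers the others.

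The same separation was counted over all genes. Measured as a ratio to the mitochondrial coding counts, 13.2% of all tested genes were apart, 11.5% with 9G8 RNAi below and 1.61% with 9G8 RNAi above, while of the 13 coding genes 2 were below and 1 above. A fit over all genes with libraries scaled to these counts, chosen after the data were seen, called 0 mitochondrial genes. There the log2 fold change was -0.50 for mt:ND2 (SE 0.15, edgeR's adjusted p = 0.108), -0.48 for mt:ND3 (SE 0.18, adjusted p = 0.193) and 0.10 for mt:CoII (SE 0.10, adjusted p = 0.814). Set directly against a neighbour, the TPM ratio of mt:ND2 to mt:CoI was 0.0296 ± 0.000794 in 9G8 RNAi and 0.0427 ± 0.00434 in control, and that of mt:ND3 to mt:CoIII was 0.0713 ± 0.00936 in 9G8 RNAi and 0.106 ± 0.00405 in control (SD, n = 4 each). Both come from the same counts as the shares and are not further evidence. Every other neighbour ratio computed overlapped between genotypes, mt:CoII to mt:CoI and mt:ND6 to mt:Cyt-b among them.

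**Figure D4:**
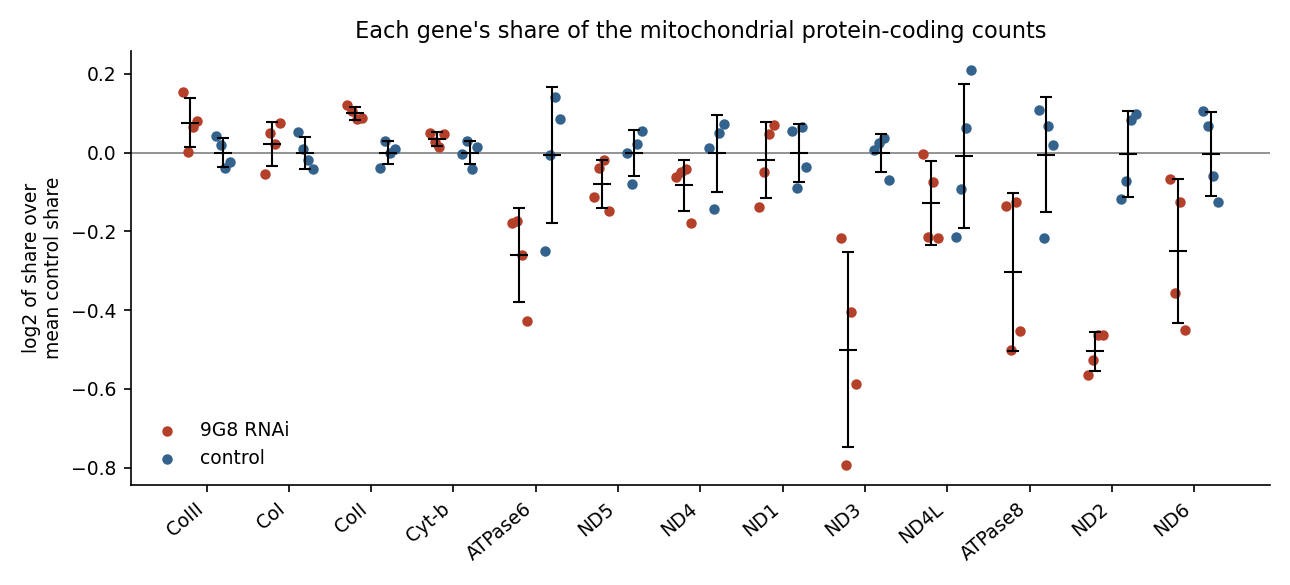
Each coding gene's share of the mitochondrial protein-coding counts, as log2 over its mean share in control, for every library with mean ± SD (n = 4 each). mt:ND2 (0.613% to 0.658% in 9G8 RNAi, 0.835% to 0.970% in control) and mt:ND3 lie below their controls in all 4 libraries, and mt:CoII lies above.

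The tRNA genes were scarce in these poly(A)-selected libraries, apart from a pair on the minus strand. mt:tRNA:L:CUN (12669 to 12733), a leucine tRNA next to mt:ND1, was at 1511, 735.5, 1594 and 1135 CPM in 9G8 RNAi and at 703.2, 808.8, 936.1 and 1093 in control. It alone made up 89.1% ± 2.01 of all mitochondrial tRNA counts in 9G8 RNAi and 83.7% ± 4.53 in control. mt:tRNA:V (14058 to 14130), the valine tRNA, was at 96.3, 73.5, 125.2 and 117.6 in 9G8 RNAi and at 145.2, 183.7, 100.1 and 116.1 in control. Between the pair lie 1324 bases that hold none of the 35 genes, and transcripts of that stretch were not analysed here. Reads of such transcripts that reach into either tRNA gene cannot be told apart from reads of the tRNA. The levels of the pair, their share of the tRNA counts and their ratio are therefore uncertain as measures of the tRNAs. Both overlapped between genotypes, with log2 fold changes of 0.48 (SE 0.40, adjusted p = 0.801) for mt:tRNA:L:CUN and -0.47 (SE 0.43, adjusted p = 0.836) for mt:tRNA:V.

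The ratio between the pair was apart between genotypes although neither level was. The ratio of mt:tRNA:L:CUN to mt:tRNA:V counts was 15.7, 10.003, 12.7 and 9.65 in 9G8 RNAi 1 to 4 and 4.84, 4.40, 9.35 and 9.42 in controls 1 to 4. All 4 9G8 RNAi ratios were the higher, though 9G8 RNAi 4 was close to controls 3 and 4. No share over all gene pairs was counted for this ratio. Relative to the mitochondrial coding counts, mt:tRNA:V was lower in every 9G8 RNAi library (0.0574% to 0.0712%) than in any control (0.0835% to 0.146%). By that measure 11.5% of all tested genes were likewise below control throughout. In the edgeR fit scaled to those counts, mt:tRNA:V had a log2 fold change of -0.78 and an adjusted p of 0.141.

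The next 4 tRNA genes by level were mt:tRNA:Y, mt:tRNA:A, mt:tRNA:C and mt:tRNA:W. mt:tRNA:Y (tyrosine, 1403 to 1468, minus strand), 5 bases from mt:CoI, was at 19.7, 7.69, 12.99 and 24.2 CPM in 9G8 RNAi and at 9.14, 10.2, 8.72 and 11.6 in control. Its log2 fold change was 0.73 (SE 0.47, adjusted p = 0.654). mt:tRNA:A (alanine, 5981 to 6045) was at 9.37, 3.48, 7.06 and 8.19 CPM in 9G8 RNAi and at 4.51, 4.66, 7.14 and 6.19 in control (log2 fold change 0.33, adjusted p = 0.908). The groups of both overlapped. mt:tRNA:W (tryptophan, 1264 to 1329, plus strand) was at 4.28, 1.92, 4.21 and 4.61 CPM in 9G8 RNAi and at 1.93, 1.52, 2.85 and 2.79 in control (0.76, adjusted p = 0.628). mt:tRNA:C (cysteine, 1322 to 1383, minus strand) was at 3.897, 1.62, 3.46 and 4.06 in 9G8 RNAi and at 2.09, 3.08, 3.45 and 4.87 in control (-0.00, adjusted p = 0.999). Both overlapped as well, and the pair lie on opposite strands with 8 bases in common. No strand setting is given in the sources used here, so reads from that shared stretch cannot be assigned. In 9G8 RNAi 2 all 4 were at their group's lowest level.

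The other 16 tRNA genes had 13 to 441 counts each over all 8 libraries. Of these, 11 were tested, and 10 had positive log2 fold changes, with adjusted p from 0.465 to 0.960. The furthest was mt:tRNA:K (lysine), with a log2 fold change of 1.01. Untested for low counts were mt:tRNA:E, mt:tRNA:F, mt:tRNA:H, mt:tRNA:T and mt:tRNA:S:UCN. The scarcest, mt:tRNA:F, had 9 counts in 9G8 RNAi and 4 in control.

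No nuclear gene for a respiratory chain subunit passed the test either. Of 69 such genes, those of complex II included, in a list chosen with earlier results of these data known, 67 were tested, 0 rose and 0 fell, and 57 had negative log2 fold changes (median -0.15), where 11 of the 13 mitochondrial coding genes had positive ones. The negative ones were 28 of 33 in complex I, 4 of 4 in complex II, 8 of 8 in complex III, 9 of 9 in complex IV and 8 of 13 in complex V. Of all 9846 tested genes, 4840 had negative log2 fold changes. The sign counts, which have no test, moved with the setting. Under the other scalings, 43 to 62 nuclear genes were negative and 4 to 11 mitochondrial genes positive. The 62 and the 4 came from scaling to the mitochondrial coding counts, which centres the coding genes near 0 by construction. With 1 library left out, 30 (without 9G8 RNAi 1 or without control 1) to 61 nuclear genes were negative, and 8 to 13 mitochondrial genes positive. The gap between the medians was 0.39 in the TMM-scaled fit. A change of scaling shifts all genes by about the same amount, so the gap hardly moves under it by construction. With 1 library left out the gap ran from 0.35 (without control 2) to 0.49 (without control 4).

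Summed TPM set the mitochondrial subunits against the nuclear ones within each library. For complex IV, mitochondrial over nuclear subunit transcripts stood at 12.4, 12.47, 11.9 and 13.8 in 9G8 RNAi 1 to 4 and at 7.38, 8.35, 7.34 and 9.70 in controls 1 to 4. For complex III the ratio was 6.26, 6.18, 5.87 and 7.55 in 9G8 RNAi and 4.28, 4.40, 3.73 and 5.40 in control. In both complexes every 9G8 RNAi library was above every control, 9G8 RNAi 2 included. The mitochondrial TPM sums alone were also apart in these complexes. They were 86906 to 105680 in 9G8 RNAi and 62576 to 74024 in control for complex IV. For complex III they were 21011 to 25335 and 15138 to 18612. The ratios are thus not further evidence, and how many other gene sets would be apart in such a ratio was not counted. The ratio for complex I was 2.29 ± 0.152 in 9G8 RNAi and 1.86 ± 0.270 in control, and for complex V 2.69 ± 0.144 in 9G8 RNAi and 2.37 ± 0.433 in control, and these overlapped through control 4. The nuclear sums themselves overlapped between genotypes in complexes I to V, for example 7638 ± 553.8 TPM in 9G8 RNAi and 8417 ± 662.0 TPM in control for complex IV.

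**Figure D5:**
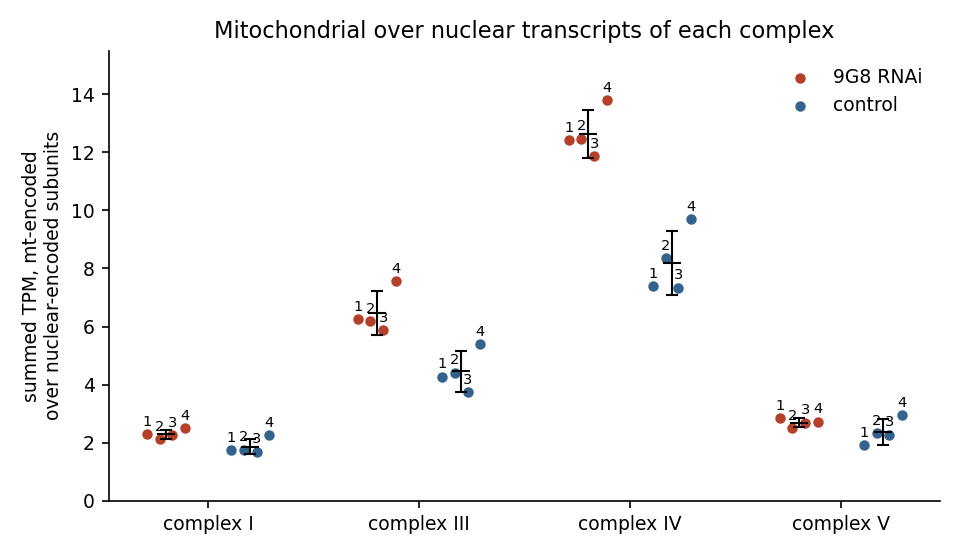
Summed TPM of mitochondrially encoded over nuclear-encoded subunits for the 4 complexes that hold both, by library (numbered), with mean ± SD (n = 4 each). In complexes III and IV the lowest 9G8 RNAi ratios, 5.87 and 11.9, lie above the highest control ratios, 5.40 and 9.70; complexes I and V overlap.

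Among the nuclear subunits the smallest p belonged to CG3192 (ND-ASHI), an accessory subunit of complex I. It was at 118.7, 65.9, 136.5 and 125.1 TMM-scaled CPM in 9G8 RNAi and at 345.1, 324.7, 272.0 and 206.4 in control. The groups were apart, as in 8.73% of all tested genes, and the log2 fold change was -1.36 (SE 0.35, edgeR adjusted p = 0.0582). It passed with library totals (adjusted p = 0.00914), DESeq2 (0.0207), limma-voom (0.0496), scaling to the mitochondrial counts (0.00435) and without control 4 (0.0422), and its adjusted p reached 0.277 in the other fits. In complex IV, CG9603 (COX7A) had a log2 fold change of -0.64 (adjusted p = 0.668) and cype (COX6C) of -0.42 (0.836). In complex III, CG14482 (UQCR-6.4) was at -0.52 (0.767) and Ucrh (UQCR-11) at -0.34 (0.873). The ATP synthase subunits nearest to the threshold had positive values, ATPsyn-d with 0.54 (0.627) and the catalytic ATPsyn-beta with 0.32 (0.859). In complex II, SdhB had -0.35 (0.872) and CG10219 (SdhD) -0.18 (0.942), and CG11455 (ND-15) of complex I had -0.45 (0.779).

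No gene listed for copying, processing or governing the mitochondrial genome passed the test. Of 9 tested genes for its replication and transcription 0 passed, with 7 positive log2 fold changes. The polymerase gene mtRNApol was at 5.85, 8.48, 3.69 and 1.46 TMM-scaled CPM in 9G8 RNAi and at 2.57, 1.20, 1.43 and 4.24 in control (log2 fold change 1.05, SE 0.57, adjusted p = 0.522), and the termination factor gene mTTF at 3.76 ± 1.38 in 9G8 RNAi and 2.53 ± 0.176 in control (0.57, adjusted p = 0.687). Of 10 tested genes for RNA processing and turnover 0 passed. JhI-1 (RNaseZ), which cuts tRNAs from precursors at their 3′ ends, was at 6.17, 10.6, 5.81 and 2.03 TMM-scaled CPM in 9G8 RNAi and at 1.66, 2.17, 2.46 and 3.61 in control (1.31, SE 0.49, adjusted p = 0.236). The helicase gene CG9791 (Suv3) had a log2 fold change of 0.63 (adjusted p = 0.738). Among nuclear regulators of mitochondrial genes, srl, the fly PGC-1 homologue, had 0.89 (0.618) and ewg 0.44 (0.813). All 6 of these named genes had their highest value in 9G8 RNAi 2. That library also had the largest TMM factor (1.54) and the most genes with a count (14913). The share of all tested genes that were highest in it was not counted, so this is no result about the 6. Of the 94 nuclear genes in all these lists, 5 were listed at 0 in every library (mtTFB1, DNApol-gamma35, CG33714, CG18624 and CG3560).

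Markers of the cell types in the dissection also varied between libraries. Summed fat body markers (8 of 8 detected, Yp1, Yp2 and Yp3 among them) were at 13665, 31287, 13281 and 10194 CPM in 9G8 RNAi and between 6882 and 8767 in control; Yp2 rose and Lsp2 fell, and the other tested ones did not pass. 9G8 RNAi 2 thus had the highest sum of these markers and the lowest mitochondrial share of its group. Much of its sum was yolk protein transcripts, with Yp2 at 11284 CPM and Yp3 at 8607 CPM in that library. Of the 7 fat body markers tested, 4 had positive and 3 negative log2 fold changes, so the sum is not a measure of fat body content. Muscle markers, from a tissue rich in mitochondria, summed to 1437 to 3198 in 9G8 RNAi and 1408 to 2577 in control, with 15 of 15 detected and 0 of 15 changed, and their highest sum was also in 9G8 RNAi 2. Gut markers (10 of 10 detected) were at 17814 to 31890 in 9G8 RNAi and 250.6 to 16345 in control, with the groups apart and 1 gene higher. Germline markers (12 detected) lay between 62.6 and 556.3 in 9G8 RNAi and between 12.3 and 466.6 in control, and eggshell markers (10 detected) between 60.9 and 9475 in 9G8 RNAi and between 15.02 and 10248 in control. Oenocyte markers (5 detected) were at 6347 to 17673 in 9G8 RNAi and 5811 to 7284 in control, hemocyte markers (7 detected, 2 of them lower) at 48.8 to 176.2 in 9G8 RNAi and 108.0 to 305.5 in control, and neuron markers (7 detected) at 15.3 to 35.3 in 9G8 RNAi and 16.9 to 29.9 in control. The part of these differences in the mitochondrial share was not tested.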

How the data were processed

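The deposited files hold raw read counts per gene from the authors, 1 file for each of the 8 libraries, with the gene coordinates and lengths used here. The submitters' processing notes name Trimmomatic 0.36 and, for build BDGP6, STAR 2.5.2b as well as featureCounts from Subread 1.5.2. The sources used here do not state the strand setting, the annotation release or how multiply mapped reads were treated. Coordinates on the mitochondrial genome (M) are those of the files.

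The test was edgeR 4.0.16 under R 4.3.3 (filterByExpr, TMM, glmQLFit and glmQLFTest, genotype alone) over 9846 genes, with Benjamini-Hochberg adjustment over all of them and a threshold of 0.05; limma 3.58.1 and DESeq2 1.42.0 were alternatives. An SE is the fold change over the root of F. Shares, TPM and ratios were computed from the deposited counts and lengths. The fit was tested on simulated data (5 sets of 9846 genes). No label says that libraries came from separate rearings, so each p refers only to the spread among the 8 libraries, which may be technical.

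Named are all protein-coding genes, the 6 tRNA genes with the highest mean level and, per list of nuclear genes, the 2 with the smallest p. mt:tRNA:K, the untested tRNA genes and the genes at 0 were named after their values were seen. Members and lists were chosen with earlier results of these data known.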

Additional observations from a re-analysis of the deposited data

Results flagged for a closer look

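In 4 of the 102 groups of 4 values examined, a library lay far from the other 3 of its genotype, where chance gives about 1 in 20. 9G8 RNAi 2 was lowest for mt:CoIII, at 22630 CPM against 32022 to 33415 in the other 9G8 RNAi libraries. The same library was lowest for mt:tRNA:W, at 1.92 CPM against 4.21 to 4.61. It was highest for ATPsyn-beta, the catalytic subunit of ATP synthase, at 471.5 TMM-scaled CPM against 265.7 to 300.8. 9G8 RNAi 4 was lowest for the share of mt:ND4 in the mitochondrial coding counts, at 3.29% against 3.57% to 3.62%.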

How the results depend on the processing

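No mitochondrial gene was called under any of the 18 other settings, and the smallest adjusted p among them was 0.108. Scaling to the mitochondrial coding counts was chosen after seeing the data. The median of all genes shifted by 0.16 on the log2 scale with library totals and by -0.13 when scaled to the mitochondrial coding counts. The number of genes called, 316, was 523 with DESeq2, 488 when scaled to the mitochondrial coding counts, and 162 (without 9G8 RNAi 2) to 504 (without 9G8 RNAi 4) with 1 library left out. The number of nuclear partner genes lower was 0; it was 1 with library totals, DESeq2, limma-voom and scaling to the mitochondrial coding counts, and 0 to 1 with 1 library left out, the 1 without control 4. That gene was CG3192. A fit that added the replicate block called 141 genes. The labels give the numbers no meaning, and deviations of same-numbered libraries correlated at -0.572, -0.25, -0.018 and -0.593, so the numbers were not taken as pairs.

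Log2 fold changes turned sign under some setting in 11 of the 19 mitochondrial genes checked. Those were the 13 coding genes and the 6 tRNA genes with the highest mean level. Scaling to the mitochondrial coding counts centres the coding genes near 0 by construction, so signs under it say nothing on stability; the values were -0.29 for mt:ATPase8, -0.26 for mt:ATPase6, -0.24 for mt:ND6, -0.13 for mt:ND4L, -0.079 for mt:ND5, -0.082 for mt:ND4, -0.084 for mt:tRNA:A and -0.016 for mt:ND1. mt:ND5, mt:ND4, mt:ND4L, mt:ND1 and mt:tRNA:A turned under that scaling alone. The cause of the other turns was not tested. With limma-voom the values were -0.060 for mt:ATPase8, -0.017 for mt:ATPase6 and -0.0095 for mt:ND6, and with the replicate block -0.059 for mt:ATPase8, -0.012 for mt:ATPase6 and -0.0015 for mt:ND6. For mt:tRNA:C the value was 0.040 with RLE factors, 0.039 with DESeq2, 0.10 with TMM computed without the mitochondrial or the 20 most abundant genes, and 0.088 with no filter. With 1 library left out, ranges were -0.40 to 0.043 for mt:ND2, -0.31 to 0.091 for mt:ND3, -0.12 to 0.27 for mt:ATPase8, -0.10 to 0.23 for mt:ATPase6, -0.090 to 0.27 for mt:ND6 and -0.30 to 0.27 for mt:tRNA:C. The other coding genes stayed positive, at 0.094 to 0.55 for mt:CoI, 0.20 to 0.62 for mt:CoII, 0.18 to 0.61 for mt:CoIII, 0.12 to 0.56 for mt:Cyt-b, 0.067 to 0.55 for mt:ND1, 0.057 to 0.43 for mt:ND4, 0.039 to 0.42 for mt:ND4L and 0.048 to 0.43 for mt:ND5, each lowest without 9G8 RNAi 4. With 1 library left out, the difference in mitochondrial share between genotypes, 3.65 percentage points, ran from 3.07 to 4.78. The SD of the share was 2.37 in 9G8 RNAi and 1.04 in control. The shares themselves were larger with the total taken without the 20 most abundant nuclear genes, at 18.7% in 9G8 RNAi and 14.8% in control. The planned rRNA share was not analysed here. Depth limits the scarce tRNA genes.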
